A study of Mus musculus with 14 samples.

Results

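MHC class I molecules carry peptides from inside a cell to its surface, and the genes described here are 10 that build and load them. They were chosen by name and all 10 were present among the 17927 genes with deposited counts. H2-Q1, H2-K1 and H2-D1 encode heavy chains, B2m encodes the invariant light chain, Tap1, Tap2 and Tapbp encode the peptide transporter and its adaptor tapasin, Psmb8 and Psmb9 encode catalytic subunits of the immunoproteasome, and Nlrc5 encodes the activator of class I transcription. RNA-SEQ, which counts sequenced fragments of RNA per gene, was done on whole brains at postnatal day 2 (P2), 7 from WT and 7 from Capn15 KO mice, all untreated. Capn15 encodes a calpain, a cysteine protease of the cytosol. The labels give the genotype as knockout only, the study's methods name a lacZ-Neo allele and a floxed allele of Capn15 and a C57BL/6J background for its lines, and which allele these brains carried is not given in the sources used here. The column names of the deposited counts give 6 litters, A to F, and the sex of each brain, with 2 female and 5 male WT brains and 4 female and 3 male KO brains. WT and KO brains with the same replicate number were littermates.

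In the class I pathway the proteasome cuts proteins of the cytosol into peptides, and the immunoproteasome subunits replace the standard ones in cells that have met interferon. The transporter moves peptides into the endoplasmic reticulum, where tapasin holds an empty heavy chain with its light chain close to the transporter until a peptide binds. NLRC5 works at the promoters of most of these genes, and interferons raise the whole set. In the brain, class I genes are best known in microglia and endothelium, and heavy chains are also made by some neurons, where they have been tied to the pruning of synapses.

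The labels call the cells neurons, but the counts held markers of many brain cells. The 10 neuron markers summed to between 7550 and 8000 CPM in the WT libraries, where CPM gives a gene's count relative to the library size after scaling with edgeR's TMM factors. All 13 microglia markers (174 to 222 CPM summed in WT, 196 to 239 in KO) and all 10 endothelium markers (291 to 361 and 304 to 358) were measured as well. Of 12 lymphocyte and granulocyte markers 4 were measured, at 4.23 to 5.82 CPM summed in WT and 4.23 to 5.57 in KO, and the defining T and B cell genes Cd3e, Cd3d, Cd3g and Cd79a were not analysed here. Total counts lay between 37620954 and 70910163 per library, so that 3 counts in the smallest library, the limit taken for detection, came to 0.0797 CPM. In a bulk brain, fewer cells of a type and less RNA per cell cannot be told apart.

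Capn15 went against the labels in 1 litter. Its level was 25.4 ± 3.07 CPM (SD, n = 7) in WT and 14.5 ± 2.67 in KO. In litter F, which holds replicate 7 of each genotype, the library labelled WT had 18.7 CPM and the library labelled KO had 20.2. Without litter F the WT libraries lay between 25.0 and 27.3 CPM and the KO libraries between 12.2 and 14.5. The genotype result of each member is therefore given with and without this litter.

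The members lie mostly on the chromosome of Capn15. In GRCm38, 8 of the 10 are in the MHC on chromosome 17, between 7.96 and 9.36 Mb from the start of Capn15 (chr17:25958364-25985796, minus strand). They run in the order Tapbp (chr17:33915899-33929292), H2-K1 (chr17:33996017-34000347), Psmb9 (chr17:34181987-34187764), Tap1 (chr17:34187553-34197225), Psmb8 (chr17:34197721-34201454), Tap2 (chr17:34203527-34216321), H2-D1 (chr17:35262730-35267499) and H2-Q1 (chr17:35320405-35325099). B2m is at chr2:122147686-122153083 and Nlrc5 at chr8:94434356-94527272. H2-K1 and Psmb9 lie on the minus strand and the other 8 on the plus strand.

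The promoters of the genes whose levels the results turn on are printed below, 5′ to 3′ on the strand of the gene, from 250 bases before to 50 after the start site in RefSeq (GRCm38.p6). H2-K1 and H2-D1 are shown because they share a 47-base run before their starts, B2m because it encodes the partner of both, and Tap1 because its window overlaps that of Psmb9 on the other strand by 275 bases. Capitals mark 2 motifs searched on both strands, TGACG (a motif of X2 boxes) and CCAAT, each printed as its reverse complement where it lies on the other strand. No base of these windows lay in more than 1 motif.
H2-K1, chr17:34000284-34000583, minus strand: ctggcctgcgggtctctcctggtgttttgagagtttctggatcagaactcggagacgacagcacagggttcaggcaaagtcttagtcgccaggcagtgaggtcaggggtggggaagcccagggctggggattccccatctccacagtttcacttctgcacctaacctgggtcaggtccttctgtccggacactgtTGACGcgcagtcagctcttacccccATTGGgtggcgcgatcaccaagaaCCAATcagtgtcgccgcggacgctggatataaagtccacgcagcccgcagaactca
H2-D1, chr17:35262844-35263143, plus strand: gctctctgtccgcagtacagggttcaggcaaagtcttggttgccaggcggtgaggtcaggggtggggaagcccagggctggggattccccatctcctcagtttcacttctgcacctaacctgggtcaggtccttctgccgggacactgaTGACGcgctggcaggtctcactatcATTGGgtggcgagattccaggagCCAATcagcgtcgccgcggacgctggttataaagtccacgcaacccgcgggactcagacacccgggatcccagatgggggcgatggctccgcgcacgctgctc
B2m, chr2:122147437-122147736, plus strand: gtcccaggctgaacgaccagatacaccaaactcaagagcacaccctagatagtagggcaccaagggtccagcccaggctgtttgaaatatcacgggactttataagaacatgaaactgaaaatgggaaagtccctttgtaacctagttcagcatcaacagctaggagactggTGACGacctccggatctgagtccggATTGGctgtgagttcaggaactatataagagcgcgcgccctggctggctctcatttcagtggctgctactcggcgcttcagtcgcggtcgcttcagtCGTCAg
Tap1, chr17:34187306-34187605, plus strand: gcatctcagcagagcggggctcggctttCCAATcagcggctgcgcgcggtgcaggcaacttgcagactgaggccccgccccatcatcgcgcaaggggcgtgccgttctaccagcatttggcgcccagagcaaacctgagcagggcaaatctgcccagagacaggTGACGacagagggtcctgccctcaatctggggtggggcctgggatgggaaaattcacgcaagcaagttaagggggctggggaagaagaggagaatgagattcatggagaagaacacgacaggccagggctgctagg

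Of the 10 members 7 were matched to the RefSeq table by symbol, and H2-Q1, Tap2 and Nlrc5 were not. TGACG was in the windows of 5 of the 7 members (20.8% of the 32851 windows of the table) and CCAAT in 6 of the 7 (37.4%), with Psmb8 holding neither. The TGACG and the CCAAT of Tap1 are the same bases as those of Psmb9, read from windows that overlap, and are counted for each of these genes. These motifs were chosen after the windows had been read, and a match is a description of the letters only.

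Class I transcripts were present in every newborn brain, at levels that spanned more than 2 orders of magnitude. Per kilobase of exon, B2m was the highest at 42.4 ± 5.14 RPKM (SD, n = 14; counts per kilobase of exon, scaled as CPM), followed by H2-D1 at 17.9 ± 0.873, Tapbp at 7.44 ± 0.336 and H2-K1 at 3.10 ± 0.412. No 2 neighbours among these genes, nor H2-K1 and the next gene, overlapped in any library. Tap1 (1.14 ± 0.141 RPKM) and Tap2 (0.805 ± 0.114), which together form the transporter, overlapped in range, although Tap1 was above Tap2 in 14 of 14 libraries. Psmb8 followed at 0.417 ± 0.0764 RPKM. The level of H2-Q1 (0.205 ± 0.0753) did not differ from that of Psmb9 (0.194 ± 0.0477) beyond their spread, with H2-Q1 above in 6 of 14 libraries, and Nlrc5 was last at 0.119 ± 0.0288 RPKM.

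**Figure D1:**
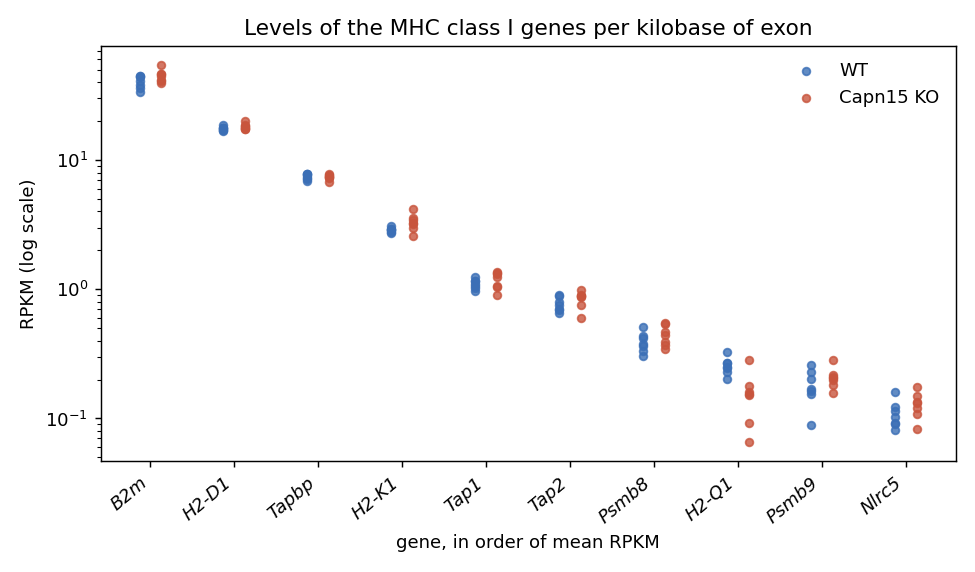
RPKM of the 10 genes on a log axis, 1 point per library, WT in blue and Capn15 KO in red, in order of the mean over 14 libraries. B2m (42.4 RPKM) and H2-D1 (17.9) lie far above Psmb9 (0.194) and Nlrc5 (0.119), and the KO points of H2-Q1 spread the widest.

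The question of the design is whether loss of Capn15 changed these transcripts. None of the 10 members passed an FDR of 0.05 between genotypes in edgeR's quasi-likelihood test with litter and sex in the model, where 1 of 17927 genes did (0.00558%). That gene was Ptgds, named after its value was seen, while Capn15 itself had an FDR of 0.0747 with litter F in the fit and of 1.58e-06 without it. At an unadjusted p under 0.05 the quasi-likelihood test and limma-voom each gave 1 member (H2-Q1), DESeq2 gave 2 (H2-Q1 and B2m) and edgeR's likelihood ratio test gave 3 (H2-Q1, H2-K1 and B2m). Of all genes 5.14% had such a p in the quasi-likelihood test. That share was not counted for the other tests, of which DESeq2 called 17 genes at the FDR and the likelihood ratio test 34, so their member counts have no such share beside them. H2-Q1 was lower in KO, and 8 of the other 9 members had fitted values above 0, against 51.4% of all genes. The median log2 fold change of the 10 members was 0.11, and that of all genes was 0.0015. Without litter F, 3 members had an unadjusted p under 0.05 (H2-Q1 lower, H2-K1 and B2m higher) against 3.74% of all genes (1.92% lower and 1.82% higher), 9 of the 10 fitted above 0 against 52.7% of all genes, 0 of the 10 passed the FDR where 7 genes did (0.039%), and the members' median was 0.13.

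H2-Q1, a nonclassical heavy chain of the Q region, had the largest fitted difference of the 10. Its WT libraries had a lowest level of 0.574 CPM, a median of 0.717 and a highest of 0.939, and its KO libraries 0.187, 0.440 and 0.811. The ranges overlapped through 1 library, KO replicate 7 of litter F. In the other litters every KO library (0.187 to 0.514 CPM) was below every WT library (0.574 to 0.939). H2-Q1 was lower in KO in 6 of 7 littermate pairs, most in replicate 3 of litter B, where WT had 0.766 CPM and KO 0.187, and in litter F the KO library was the higher with 0.811 against 0.699.

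The fitted log2 fold change of H2-Q1 was -0.75 (SE 0.24, 95% interval -1.27 to -0.22), or 0.596 of the WT level, with an unadjusted p of 0.00851 and an FDR of 0.746 in the quasi-likelihood test. Without litter F it was -0.96 (SE 0.24, FDR 0.518), or 0.514 of WT. The two-sided exact permutation test over 7 against 7 libraries gave p = 0.00583, and without litter F p = 0.00216, which is the smallest that 6 against 6 can give. The study called H2-Q1 on these same brains and printed a larger decrease, while the fit here gave a smaller one and did not call it. The study's printed changes of Capn15 and Irgm1 were also larger than those fitted here, and it called more genes. The gap was therefore not particular to H2-Q1. The source of that gap was not tested. The shared direction is not independent evidence. Counts were few, from 7 to 46 per library. The 7 counts of KO replicate 3 allow 0.0901 to 0.384 CPM (95% Wilson interval, counting error only). Sampling alone would give a CV of 19.1% at the mean count of all 14 libraries, where the KO libraries had 45.0% and the WT libraries 15.6%.

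Reads of H2-Q1 can be hard to place. Of the 3129 windows of 100 bases in its transcripts, 252 (8.05%) occur unchanged in another gene, 106 of them in H2-Q2, and 85 of the 2591 windows of H2-D1 occur in H2-Q1. How the counting treated such reads is not given in the sources used here. Fitted values of both genes were close to 0. H2-Q2 had a log2 fold change of -0.02 and H2-D1 one of 0.05. H2-Q4, H2-Q6 and H2-Q7, named here as neighbours after their values were seen, had -0.03, 0.10 and 0.03, and the FDR was 1 for each.

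**Figure D2:**
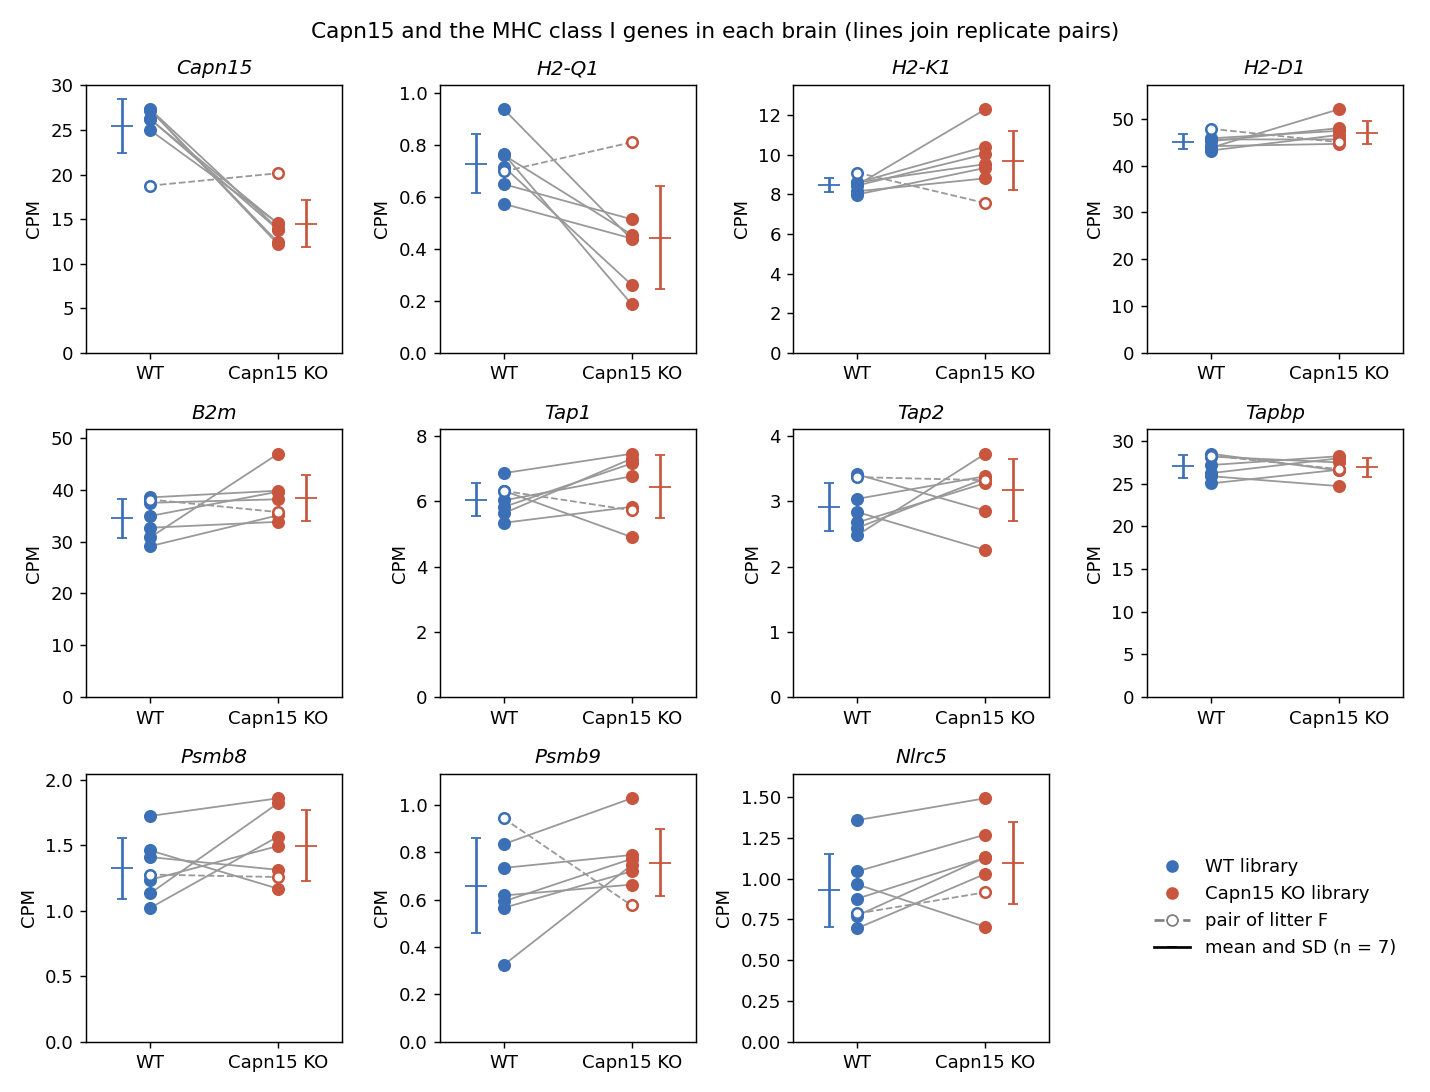
CPM of Capn15 and the 10 genes in each library, WT on the left and Capn15 KO on the right of each panel, with lines joining replicate pairs and with mean and SD beside the points (n = 7). Open points and dashed lines are litter F, where Capn15, H2-Q1, H2-K1, H2-D1, B2m and Psmb9 run opposite to the other 6 pairs.

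H2-K1, a classical heavy chain that presents peptides to cytotoxic T cells, ran the other way. Its WT libraries had a lowest level of 8.0 CPM, a median of 8.48 and a highest of 9.10, and its KO libraries 7.56, 9.54 and 12.3. The highest WT library and the lowest KO library were those of litter F. In the other litters every KO library (8.82 to 12.3 CPM) was above every WT library (8.0 to 8.61), and the largest value was that of KO replicate 2 of litter B. The WT libraries varied little, with a CV of 4.17%, and the KO libraries had a CV of 15.1%. Counting error alone would give 4.80% at the mean count of all 14 libraries, which was not taken for each genotype.

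The log2 fold change of H2-K1 was 0.16 (SE 0.076, FDR 0.971, quasi-likelihood test), or 1.12 times the WT level, with KO higher in 6 of 7 pairs. It was 0.097 when either brain of pair 4 was left out. Without litter F it was 0.24 (SE 0.065, 95% interval 0.10 to 0.38, FDR 0.616), or 1.18 times. The exact permutation test gave p = 0.046 over 14 libraries and 0.00216 without litter F, and the sign-flip test over 7 pairs gave p = 0.109. Over all genes, 19 of 17927 (0.106%) had groups that did not overlap without litter F, 9 with KO higher (0.0502%) and 10 with KO lower (0.0558%), and H2-K1 and H2-Q1 were 1 of each. With all 14 libraries 1 gene had groups that did not overlap (0.00558%), and it was not a member.

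H2-D1, the other classical heavy chain of the list, was at 45.1 ± 1.55 CPM in WT and 47.1 ± 2.53 in KO (SD, n = 7). The WT libraries ran from 43.2 through a median of 45.2 to 47.9 CPM and the KO libraries from 44.7 through 46.6 to 52.1, and the groups overlapped. KO was higher in 6 of 7 pairs, but by little: the log2 fold change was 0.051 (95% interval -0.033 to 0.13, FDR 1), so that the interval holds no rise above 1.098 times. It was 0.023 when either brain of pair 5 was left out. Without litter F it was 0.077 (unadjusted p = 0.075, quasi-likelihood test). The exact permutation test, which leaves out litter and sex, gave p = 0.0985 with litter F and 0.0195 without it.

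B2m, the light chain that every class I heavy chain needs to fold, was at 34.5 ± 3.74 CPM in WT and 38.4 ± 4.39 in KO. The WT libraries ran from 29.1 through a median of 34.9 to 38.5 CPM and the KO libraries from 33.8 through 38.1 to 46.9, with overlap. The log2 fold change was 0.14 (SE 0.065, FDR 0.971, quasi-likelihood test; exact permutation p = 0.0932) and KO was higher in 6 of 7 pairs. It was 0.071 when either brain of pair 5 was left out. Without litter F it was 0.18 (SE 0.065, FDR 1; exact permutation p = 0.0606). KO replicate 2, the library with the highest H2-K1, also had the highest B2m and the highest H2-D1.

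The peptide transporter and tapasin showed no difference past the spread between libraries. Tap1 ran from 5.35 through a median of 6.03 to 6.87 CPM in WT and from 4.91 through 6.77 to 7.46 in KO, with a log2 fold change of 0.051 (95% interval -0.12 to 0.22). Tap2 ran from 2.48 through 2.84 to 3.41 CPM in WT and from 2.26 through 3.32 to 3.73 in KO, with 0.083 (-0.15 to 0.32). For both genes the KO range enclosed the WT range, and both changed sign when either brain of pair 5 was left out, to -0.10 for Tap1 and -0.03 for Tap2. Without litter F they were at 0.086 and 0.10, and without either brain of pair 4 at 0.16 and 0.18. Tapbp was the most alike between genotypes, at 27.1 ± 1.35 CPM in WT and 26.9 ± 1.17 in KO. Its log2 fold change of -0.0048 had a 95% interval of -0.084 to 0.074, or 0.944 to 1.05 times the WT level, and was 0.0099 without litter F. Of the 3869 windows of Tapbp transcripts 14.8% are shared with other annotated genes, mostly with the overlapping Gm19412.

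The immunoproteasome subunits were scarce. Psmb8 ran from 1.02 through a median of 1.28 to 1.72 CPM in WT and from 1.17 through 1.49 to 1.86 in KO, with a log2 fold change of 0.17 (SE 0.15, FDR 1; exact permutation p = 0.218), which was -0.05 when either brain of pair 5 was left out, 0.34 when either brain of pair 4 was and 0.21 without litter F. Psmb9 had 13 to 56 counts per library and ran from 0.324 through 0.618 to 0.944 CPM in WT and from 0.576 through 0.747 to 1.03 in KO, with 0.16 (SE 0.20, FDR 1; exact permutation p = 0.288). Psmb9 was higher in KO in 6 of 7 pairs, and in litter F the WT library was its highest WT value and the KO library its lowest KO value. Without litter F its log2 fold change was 0.32 (exact permutation p = 0.0584), and without either brain of pair 5 it was 0.019. Psmb9 and Tap1 are divergent neighbours that overlap on opposite strands, and where counting ignores strand their shared bases cannot be assigned.

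Nlrc5, the activator of class I transcription, ran from 0.696 through a median of 0.877 to 1.36 CPM in WT and from 0.704 through 1.13 to 1.49 in KO. KO was higher in 6 of 7 pairs, this time including litter F and with litter C (0.964 in WT, 0.704 in KO) as the exception. The log2 fold change was 0.17 (SE 0.17, 95% interval -0.20 to 0.53, exact permutation p = 0.211) and 0.16 without litter F. It was 0.020 when either brain of pair 5 was left out and 0.30 when either brain of pair 4 was. The interval is wide, and a fold of 1.44 lies within it, so a change of that size could not be told from none here.

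**Figure D3:**
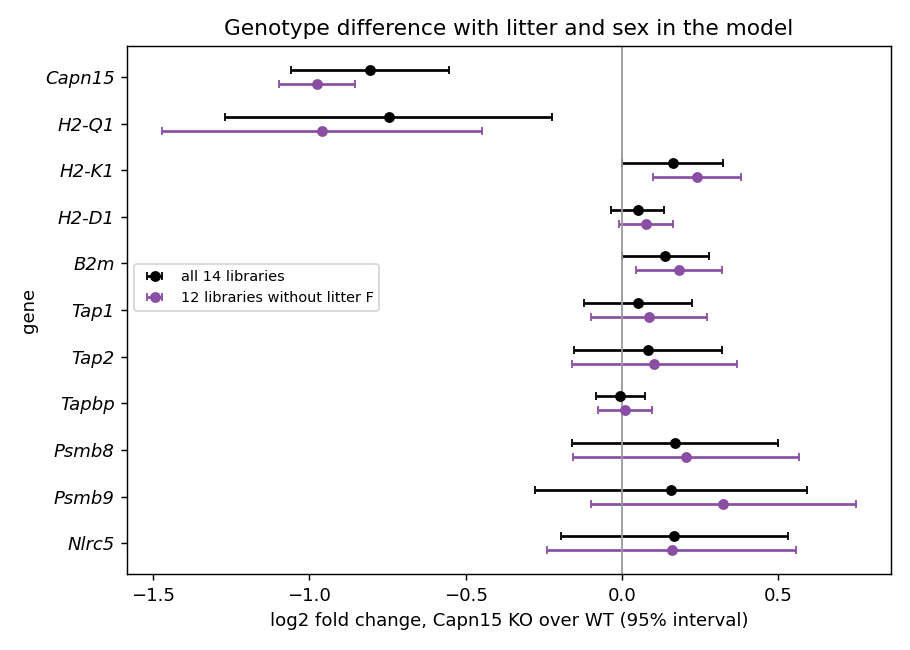
Fitted log2 fold change of Capn15 KO over WT with its 95% interval, from all 14 libraries (black) and from the 12 without litter F (purple). H2-Q1 is at -0.75 and -0.96, H2-K1 at 0.16 and 0.24, and the intervals of the transporter, tapasin, immunoproteasome and Nlrc5 genes span 0 in both fits.

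Differences between litters passed the test in much of the transcriptome and in none of these genes. In the same fit 5301 of 17927 genes (29.6%) differed between litters at an FDR of 0.05, and 0 of the 10 members did, with FDR between 0.207 for B2m and 0.886 for H2-D1. A litter p under 0.05 before adjustment was seen for 0 of the 10 by this test, by the likelihood ratio test and by limma-voom, and for 1 (B2m) by DESeq2 and without litter F. B2m passed the FDR when WT replicate 2 was left out, and Tap1 when WT replicate 5 was. The share of the variance in log2 CPM that lay between litters, after genotype means were removed, was 15.6% for H2-D1, 26.5% for Psmb8, 38.4% for H2-K1, 46.7% for B2m and 60.7% for Tapbp. All 10 were under the median of 67.3% over the 15180 genes with a median of at least 1 CPM, and 6 were under the 41.7% that values unrelated to litter give on average with these 6 litters. For H2-D1, 98.3% of those genes had a larger share. Counting error takes part of the variance of the scarce members (a CV of 17.1% for Psmb9 and 14.4% for Nlrc5) but little of that of H2-D1 (2.14%). H2-Q1, Psmb9 and Nlrc5 had a median under 1 CPM, so the genes behind the 67.3% leave out genes as scarce as these.

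**Figure D4:**
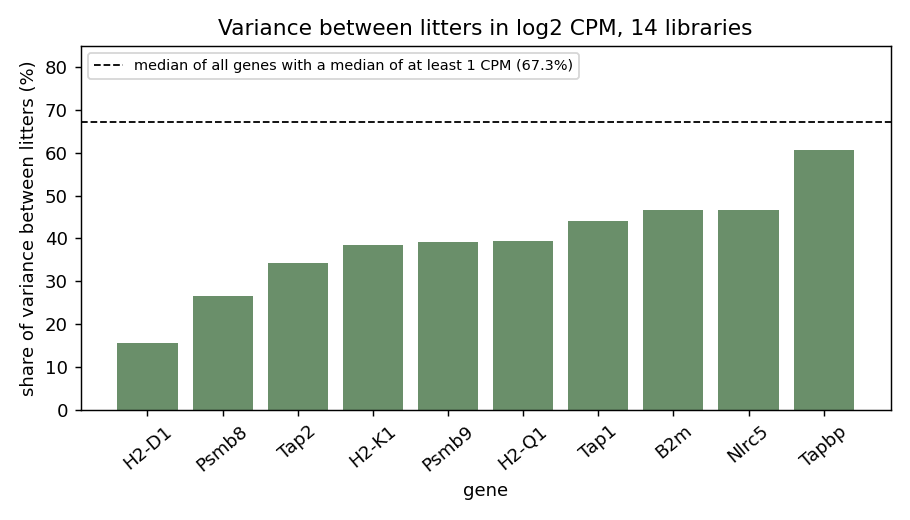
Share of the variance of log2 CPM between the 6 litters for each of the 10 genes, after removal of genotype means (14 libraries), with the median of 15180 genes as a dashed line. All 10 bars, from 15.6% for H2-D1 to 60.7% for Tapbp, are under the line at 67.3%. The scarce H2-Q1, Psmb9 and Nlrc5 are not among the 15180 genes.

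Differences between the sexes passed the test in few genes and in no member. In the quasi-likelihood test 12 of 17927 genes (0.0669%) differed between the sexes and 0 of the 10 members did, none with an unadjusted p under 0.05. Fitted log2 differences of male minus female ran from -0.21 for Nlrc5 (SE 0.18, FDR 0.947) to 0.012 for Tapbp (SE 0.040, FDR 0.983). Sex was not balanced over genotype: in 4 pairs the WT brain was male and the KO brain female, in 2 pairs the reverse held, and in pair 7 both were male.

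Some members rose and fell together from brain to brain. Over the 14 libraries, with genotype means removed, the log2 CPM of B2m and Tapbp had a Pearson r of 0.784, Tap1 and Nlrc5 one of 0.733, H2-K1 and B2m one of 0.681, and H2-K1 and H2-D1 one of 0.595. Psmb8 and Psmb9 had -0.268. H2-Q1 had -0.57 against H2-K1 and -0.368 against Tapbp, and between -0.147 and 0.133 against the other 7 members. KO replicate 7 of litter F had the highest H2-Q1 (0.811 CPM) and the lowest H2-K1 (7.56 CPM) of the KO libraries, and weighs heavily in the -0.57. Correlations were taken with litter F in and with means by its labels, and were not taken without it. The points share libraries, litters and scaling, so these are descriptions. Of 15152 other genes compared with the mean of the 7 members that had a median of at least 1 CPM, the most alike were Fkbp10 (r = 0.911 over 14 libraries), Rcn3 (0.909), Laptm4a (0.884), Cfl2 (0.876), Vcp (0.867) and Wdr62 (0.865). These are the highest of 15152 values from only 14 libraries, so their size owes in part to that selection.

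Genes around the pathway were read from lists of their own. Over all genes 51.4% fitted higher in KO and 5.14% had p under 0.05 before adjustment (quasi-likelihood test). Of 30 other class I heavy chains and relatives 14 were measured, 7 fitted higher and 7 lower in KO, and 1 had such a p. That was H2-T23, the Qa-1 heavy chain, at 3.20 ± 0.632 CPM in WT and 3.67 ± 0.532 in KO (SD, n = 7; log2 fold change 0.23, SE 0.088, FDR 0.866). Fcgrt, the neonatal Fc receptor and the most abundant of them by CPM, was at 21.2 ± 2.0 and 19.9 ± 1.33 CPM. Of 25 other genes of peptide supply and loading 24 were measured, with 8 fitted higher and 16 lower and 0 with an unadjusted p under 0.05. The chaperone Canx, the most abundant, was at 708 ± 57.3 CPM in WT and 691 ± 42.1 in KO. Of 17 receptors for class I and their adaptors Tyrobp and Fcer1g, both adaptors, were measured here, and of 11 MHC class II genes 6 were, with 0 under that p in either list. H2-DMa was the highest class II gene at 6.89 ± 0.793 CPM in WT and 7.14 ± 1.05 in KO.

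Among 30 regulators of class I transcription 29 were measured and 2 had an unadjusted p under 0.05, both higher in KO. Of all genes 5.14% had such a p, and 2.88% had it with KO higher. Irf7, an interferon-induced factor that drives interferon genes, went from 0.889 ± 0.231 to 1.45 ± 0.284 CPM (log2 fold change 0.74, SE 0.19, FDR 0.466, quasi-likelihood test) and was higher in KO in 7 of 7 pairs, litter F included. Irf9, which carries STAT proteins to interferon-stimulated elements, went from 13.8 ± 1.28 to 15.1 ± 1.17 CPM (0.13, FDR 0.958). Of 40 interferon-stimulated genes 37 were measured, 32 fitted higher and 5 lower in KO, and 16 had an unadjusted p under 0.05, all higher, against 2.88% of all genes. In this fit 0 of the 37 passed the FDR and without litter F 1 did, and their median log2 fold change was 0.28 beside 0.11 for the 10 members. The smallest p was that of Irgm1, a GTPase of interferon defence, at 4.31 ± 0.456 and 5.69 ± 0.706 CPM (0.44, SE 0.083, FDR 0.176, and 0.0485 without litter F).

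No marker of microglia, endothelium or border macrophages passed the FDR between genotypes in the quasi-likelihood test. Of all genes 51.4% fitted higher in KO. With an unadjusted p under 0.05, 2.88% of all genes were higher and 2.26% lower (1.82% and 1.92% without litter F). Of 13 microglia markers 11 fitted higher in KO and 3 had an unadjusted p under 0.05, all higher (4 without litter F): the complement genes C1qb (15.8 ± 1.23 to 18.4 ± 2.92 CPM, FDR 0.473 in the quasi-likelihood test) and C1qc (0.18 on the log2 scale) and the lipid receptor Trem2 (0.21). The median log2 fold change of the 13 was 0.077. Of 10 endothelium markers 7 fitted higher and 1, the tight junction gene Cldn5, had an unadjusted p under 0.05 (54.3 ± 5.75 to 58.0 ± 5.12 CPM; 2 genes without litter F), with a median of 0.024. Of 6 border macrophage markers 5 fitted lower and 1, Mrc1, had an unadjusted p under 0.05, being lower in KO (32.2 ± 3.87 to 29.0 ± 3.25 CPM, and 0 genes without litter F). Of 7 meningeal fibroblast markers 5 fitted lower and 3 had such a p, all lower. Of 10 neuron markers 1 was higher and 1 lower with such a p. Choroid plexus markers were lower in KO in 8 of 8, 6 of them with an unadjusted p under 0.05, and summed to 753 to 990 CPM in WT and 617 to 855 in KO. Their most abundant gene Ttr had an FDR of 0.0942, and 0.0485 without litter F. The part of these cells in the levels of the members was not tested.

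Position beside Capn15 was examined in the same way. Of 392 measured genes of chromosome 17 within 10 Mb of the start of Capn15, 4.59% had p under 0.05 before adjustment and 0 passed the FDR, against 5.14% of all genes, and without litter F the shares were 3.32% and 3.74%. Members apart, genes among those of smallest p in this window were Hspa1b, Cdkn1a, Rab26os and Egfl8, with log2 fold changes of -0.30, -0.15, 0.28 and -0.31. A knockout allele and genes near it are inherited together unless a crossover parts them, and for the 8 members on this chromosome that linkage and the loss of Capn15 cannot be told apart in this design.

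**Figure D5:**
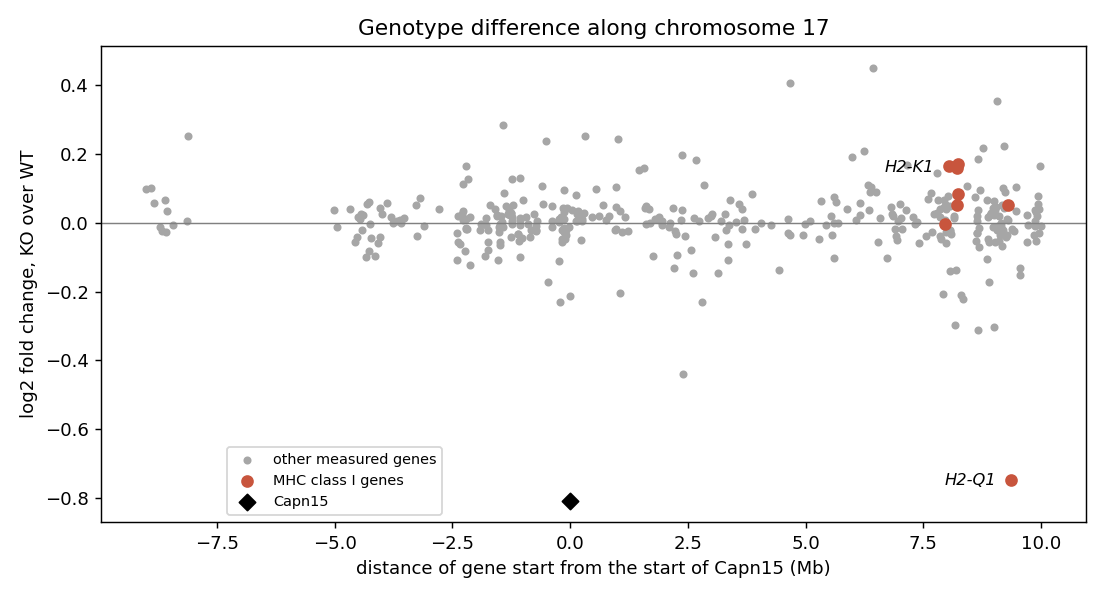
Log2 fold change of KO over WT for the genes of chromosome 17 against the distance of their start from that of Capn15, in Mb, with the 8 class I members in red and Capn15 as a black diamond. H2-Q1 at 9.36 Mb stands lowest after Capn15, and the other 7 members lie among their neighbours between -0.0048 and 0.17.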

How the data were processed

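RNA of 7 WT and 7 Capn15 KO brains was sequenced after depletion of ribosomal RNA. The authors trimmed reads with Trimmomatic, aligned them to GRCm38 with STAR and deposited raw counts per gene for 17927 genes, filtered by a rule not given in the sources used here. The lowest sum of a deposited gene was 145 counts over the 14 libraries. The labels name featureCounts, a TruSeq stranded kit and neurons, while the paper's methods name HTSeq-count and a ScriptSeq kit for whole brains. The strand setting and the annotation release are not given in the sources used here. The labels gave the genotype, and the names of the count columns the litter and sex. Nothing beyond litter says how the brains were sampled, and each p-value sets a difference against the variation between these samples.

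Counts were tested in R 4.3.3 with edgeR 4.0.16 by the quasi-likelihood test, with TMM factors, litter and sex as covariates, all genes with at least 1 count, and Benjamini-Hochberg adjustment over all genes to give an FDR, called at 0.05. limma 3.58.1 (voom) and DESeq2 1.42.0 were alternatives. CPM values are TMM-scaled, log2 CPM was taken with a prior count of 2, and RPKM values use the summed exon length of GENCODE M21, where 17915 identifiers were found. Exact permutation tests used the 3432 regroupings of 7 against 7 libraries (smallest p 0.000583), and sign-flip tests used 7 pairs (smallest p 0.0156), all two-sided. The permutation tests took no account of litter, pair or sex, and the sign-flip tests took none of sex. Python 3.11.15 with numpy 2.4.6, scipy 1.17.1, pandas 2.3.3 and matplotlib 3.10.9 did the rest. Total counts of 37620954 to 70910163 put 3 counts at 0.0797 CPM or less. Wilson intervals cover counting error only, since amplified reads are not independent molecules, while intervals of fitted log2 fold changes include the spread between libraries. The lowest chi-square per gene between any 2 libraries was 4.66, above sampling noise, and all were kept as separate samples.

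Tested on simulated counts of 17927 genes for the genotype comparison, of which 200 differed, the quasi-likelihood test found 100 of 100 changed 2-fold and 94 of 100 changed 1.5-fold, with 21 false calls. The changed genes were drawn from those with a mean above 1 CPM, and no litter or sex effect was simulated. The result does not extend to H2-Q1 and Psmb9, whose means were lower, or to the differences between litters seen here. Replicate numbers pair littermates by the column names. Pairs 2 and 3 both come from litter B, where the matching rests on the number alone, so the 7 pairs stand for 6 litters. Sign-flip tests and counts of pairs treat them as 7. Deviations from the group means of paired libraries had a mean correlation of 0.161 (-0.432 to 0.448) over 15180 genes, against -0.125 between libraries of different litters. The KO library most alike to a WT library bore the same number for 2 of the 7 WT libraries.

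Besides Capn15 and the 10 members, the genes named are from each list the most abundant and up to 4 of smallest p, up to 5 genes of chromosome 17 within 10 Mb of Capn15 with the smallest p, and up to 6 whose levels were most alike to the members' mean. Any other gene was named with its values in view. Values of some genes that this rule names are not reported here, and those genes stay in every fit and count. The members and the lists were chosen with earlier results of these data known, so no pattern here is independent support for them. In all, 24 alternatives were run: other tests, scalings, filters and covariates, a replicate block, the fit without litter F, and each library left out in turn.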

Additional observations from a re-analysis of the deposited data

Results flagged for a closer look

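No member had a library that stood apart from its group. Of 22 groups of 7 libraries examined (Capn15 and the 10 members in each genotype), 2 held a library farther from the rest than Dixon's 95% limit, where chance gives about 1.1. Both were Capn15 in litter F. In WT replicate 7 the gap was 0.761 of the range (18.7 CPM, with 25.0 in the next library), and in KO replicate 7 it was 0.647 of the range (20.2 CPM, with 14.5 in the next). The labels of these 2 libraries were kept, since nothing in them gives another genotype.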

How the results depend on the processing

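In each of the 24 alternatives 0 of the 10 members passed an FDR of 0.05 between genotypes, and in each of the 21 with a test of sex 0 passed between sexes. H2-Q1 stayed below 0 (-0.96 to -0.54 with 1 library left out, FDR 0.507 at the lowest) and H2-K1 above 0 (0.097 to 0.24, FDR 0.615 at the lowest). The other members kept above 0 were B2m (0.071 to 0.18), H2-D1 (0.023 to 0.077), Psmb9 (0.019 to 0.32) and Nlrc5 (0.020 to 0.30). Of 240 fitted member values 225 kept their sign and 15 reversed. These values are not separate checks. In a litter of 2 brains the litter term absorbs the brain that is left, so dropping either brain gave nearly the same fit. The fit without KO replicate 7 likewise nearly repeated that without litter F. Without litter F Tapbp was at 0.0099. With 1 library left out Tapbp ran from -0.036 to 0.012, Tap1 from -0.10 to 0.16, Tap2 from -0.031 to 0.18 and Psmb8 from -0.048 to 0.34, where the lowest values of Tap1, Tap2 and Psmb8 came without WT replicate 5 or KO replicate 5 (reversed values for Tapbp were between 0.0024 and 0.012). The cause was not tested. Over all genes, 1 was called between genotypes, with 34 by the likelihood ratio test, 17 by DESeq2, 0 with total counts only, 0 with the replicate block in place of litter, 2 without sex, 7 without litter F, and 0 to 7 with 1 library left out (7 without KO replicate 7, 6 without WT replicate 7). Under the block H2-Q1 was at -0.75 (FDR 0.94) and H2-K1 at 0.16, and no call of a member changed. Of the members 2 had an exact permutation p under 0.05, with 1 in the sign-flip test over pairs (the replicate block) and 1 to 3 when 1 library was left out. These tests were not run over all genes, so the counts have no share of all genes beside them. Between litters 0 members were called, and 0 to 1 with 1 library left out. Depth limits H2-Q1, Psmb8, Psmb9 and Nlrc5 most, with as few as 7, 44, 13 and 30 counts in a library.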
